A study of Homo sapiens with 9 samples.

Results

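The 109 genes described here carry the names of nuclear-encoded subunits of the oxidative phosphorylation complexes, and include assembly factors with the same name stems. They were taken from the 58735 annotated genes by biotype and name: every protein-coding gene whose symbol begins with NDUF, UQCR, ATP5 or COX and a digit, plus SDHA, SDHB, SDHC, SDHD and CYC1. The rule uses names and biotype alone. Of these, 37 genes were placed in complex I, 4 in complex II, 10 in complex III, 19 in complex IV and 20 in complex V. The placing followed the symbols, except that NDUFA4 and NDUFA4L2 were placed in complex IV. By symbol, complex V also takes in ATP5IF1 and ATP5S, which were not counted among its F1, Fo or stalk subunits. Both count in its medians and sums below. A further 17 encode assembly factors (NDUFAF1 to NDUFAF8 and 9 COX-named factors), and 2 are readthrough genes that join a subunit gene to its neighbour. Of the 109, 101 passed the low-count filter and were tested, among 17023 tested genes in all. The 8 that did not pass were NDUFA7, COX4I2, COX6A2, COX6B2, COX8C, ATP5MGL and the readthrough genes ATP5MF-PTCD1 and NDUFC2-KCTD14.

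Oxidative phosphorylation takes place in the inner mitochondrial membrane. Complex I (NADH dehydrogenase) and complex II (succinate dehydrogenase) pass electrons to ubiquinone, complex III (cytochrome bc1) passes them to cytochrome c, and complex IV (cytochrome c oxidase) passes them to oxygen, while complexes I, III and IV pump protons that complex V (ATP synthase) uses to make ATP. A small set of catalytic subunits is encoded by mitochondrial DNA, and all other subunits are made from nuclear genes and imported. Transcription factors such as NRF1, GABP and ERRalpha (the product of ESRRA) and the coactivator PGC-1alpha (PPARGC1A) are known regulators of the nuclear genes.

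The cells were OVCAR3, an established human ovarian carcinoma line, sampled after 72 h in culture in 3 groups of 3 libraries. The control group, labelled wild type for genotype, carried a scramble short hairpin RNA, and the groups labelled as GPX3 knockdown carried hairpin 76 (sh76) or hairpin 78 (sh78) against GPX3, a secreted glutathione peroxidase. All groups thus carried a hairpin and shared one medium with serum and bovine insulin, and a group without a hairpin was not analysed here. The vector, and whether the cells were clones or pools, are not given in the sources used here. The labels do not say whether replicates were separate cultures, so the p-values measure the spread between these libraries, which may be technical. Total counts were 14652965 to 21327562 per library. Scaled counts (CPM, each count divided by the library size) of GPX3 were 173, 109 and 117 with scramble, 56.8, 55.2 and 55.5 with sh76, and 35.3, 28.4 and 28.3 with sh78. GPX3 fell by 1.25 on the log2 scale (SE 0.16, adjusted p = 0.00264) with sh76 and by 2.12 (SE 0.17, adjusted p = 0.000125) with sh78. Among marker genes set out for the check of the label, all 10 of ovarian carcinoma epithelium were at 1 FPKM or more in all libraries. Their summed level was 2210 to 2490 FPKM with scramble, 1960 to 2240 with sh76 and 1840 to 2000 with sh78. At 1 FPKM or more in all libraries were 1 of 6 fibroblast, 1 of 4 endothelial, 0 of 5 leukocyte and 0 of 4 muscle markers, and no marker was at 0 in all libraries. The summed leukocyte markers were 0.806 to 1.31 FPKM with scramble, 1.42 to 1.55 with sh76 and 1.57 to 1.82 with sh78. Those of endothelium were 2.17 to 2.48, 2.43 to 3.18 and 3.15 to 4.29 FPKM, and those of fibroblasts 2.80 to 3.99, 3.10 to 5.62 and 3.48 to 4.76 FPKM. The part of these shifts in the results below was not tested.

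With scramble, the tested members had a median level of 23.6 FPKM (fragment counts divided by gene length and library size), from 0.458 for COX20 to 414 for ATP5F1B, and 97 of the 109 were at 1 FPKM or more in all libraries. ATP5F1B encodes the catalytic beta subunit of ATP synthase. The other most abundant members per unit length were COX8A at 257 ± 14.9 FPKM (SD, n = 3), NDUFS5 at 248 ± 20.7 and COX6B1 at 238 ± 11.7. These 3 levels lay within about 1 SD of their neighbours in that order, whereas ATP5F1B stood above them by several SDs. The highest complex III member was UQCRC1, a core protein of the complex, at 129 ± 2.08 FPKM. Complex II was the least abundant, with its highest member SDHB at 23.1 ± 1.19 FPKM and its lowest, SDHC, at 8.65 ± 0.0847 FPKM.

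Both hairpin groups had lower RNA levels of the respiratory chain genes as a set, by a small amount. The medians of complexes I, III and IV were lower with both hairpins. Those of complexes II and V were −0.11 and −0.18 with sh78, and −0.03 and −0.07 with sh76 (complex V −0.01 without sh76 replicate 2). Differences between complexes were not tested. The median log2 fold change of the 101 tested members was −0.10 with sh76 and −0.13 with sh78, against 0.01 over all 17023 tested genes in both comparisons. Fold changes were below 0 for 78 members (77.2%) with sh76 and for 90 (89.1%) with sh78, against 48.6% and 48.7% of all tested genes. The 109 genes took 0.982%, 0.939% and 0.975% of all counts with scramble. Their share was 0.946%, 0.861% and 0.890% in the sh76 group and 0.884%, 0.874% and 0.847% in the sh78 group. The first sh76 library overlapped the scramble range, and all other hairpin libraries lay below it. Because these are bulk samples, fewer cells with high levels and less RNA per cell cannot be told apart. Both comparisons use the same 3 scramble libraries, so their likeness is not independent support.

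Few single members passed the test at an adjusted p under 0.05. With sh76, 5 of the 101 fell (4.95%) and 0 rose, where 2.16% of all tested genes fell and 1.43% rose. With sh78, 8 fell (7.92%) and 0 rose, where 2.56% of all tested genes fell and 1.85% rose. At an unadjusted p under 0.05 there were 27 lower of 29 with sh76 and 39 lower of 40 with sh78, where 9.15% and 9.22% of all tested genes were lower at that p. DESeq2 called 9 lower and 1 higher with sh76, and 10 lower and 0 higher with sh78, where it called 5.16% and 5.63% of all genes it gave an adjusted p, in either direction. In the direct comparison of sh78 with sh76, 0 members were called by edgeR and 1 by DESeq2, with 8 (7.92%) at an unadjusted p under 0.05, all lower with sh78, a share near the 8.15% of all tested genes lower at that p. DESeq2 called 5.12% of all genes there. In that comparison 1.72% of all tested genes were called lower and 1.97% higher. COX8A alone fell with both hairpins, and 0.881% of all tested genes did so.

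Same-numbered replicates of the 3 groups deviated together, and with the replicate number as a block many more genes were called, members and others alike. With the block, 31 members (30.7%) fell and 2 rose with sh76, where 10.7% of all tested genes fell and 9.63% rose. With sh78, 42 members (41.6%) fell and 0 rose, where 10.1% fell and 9.79% rose overall. Of the members described below, those called lower under the block alone were NDUFS7, NDUFV1, SDHA, CYC1, UQCR11, UQCRC1, COX5B, COX6A1, COX7B, NDUFA4, ATP5F1B, ATP5MC3, ATP5ME, ATP5MF, COX17 and COX18 for sh76. For sh78 they were NDUFS7, NDUFS8, NDUFV1, NDUFB10, NDUFC2, CYC1, UQCR11, UQCRC1, COX6A1, COX6B1, COX7A2, NDUFA4L2, COX7A2L, ATP5F1A, ATP5F1B, ATP5ME and COX18. The 2 that rose with sh76 were SDHC, a membrane anchor of complex II, and COX10, an enzyme of heme A synthesis. Under the block 26 members (25.7%) fell with both hairpins, where 4.56% of all tested genes did: 8 in complex I, 0 in complex II, 4 in complex III, 7 in complex IV, 5 in complex V and 2 assembly factors. For sh78 against sh76 the block gave 10 lower and 1 higher, beside 8.62% lower and 9.69% higher overall. The 1 higher was NDUFC2. The separation of raw values pointed the same way: all 3 hairpin libraries were below all 3 scramble libraries in CPM for 32 members (31.7%) with sh76 and 47 (46.5%) with sh78, where 11.7% and 11.2% of all tested genes were so separated.

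**Figure D1:**
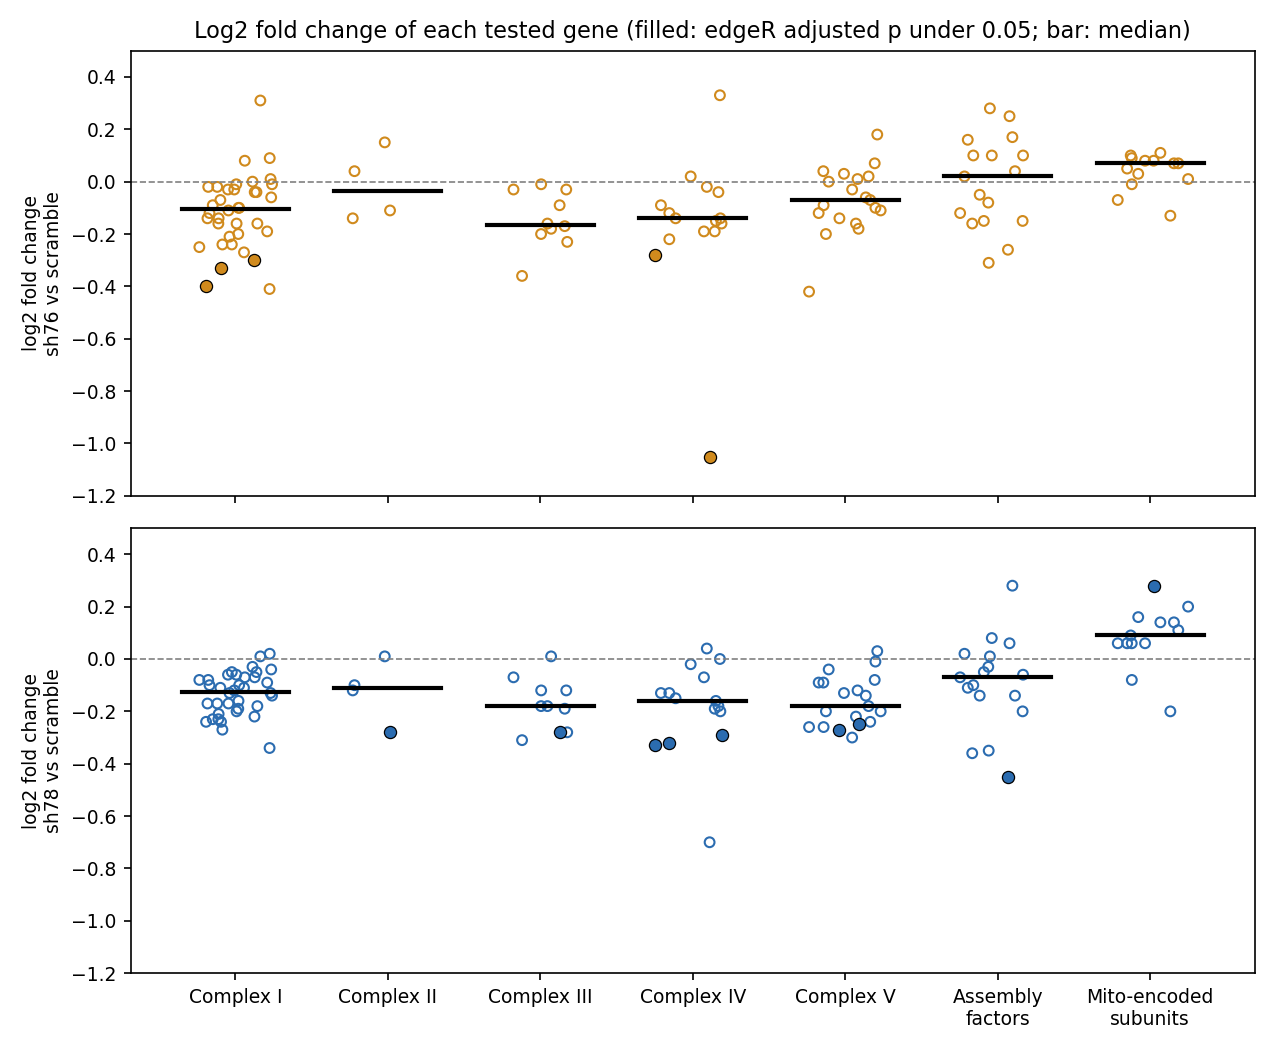
Log2 fold change against scramble of each tested gene (y axis), by complex (x axis), with sh76 in the upper and sh78 in the lower panel. Filled points had an edgeR adjusted p under 0.05 and black bars are medians; medians of complexes I, III and IV lie between −0.11 and −0.18 in both panels, and that of the 13 mitochondrially encoded genes, shown for comparison, lies above 0 (with sh76 it was −0.01 after length and GC correction).

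The plot of fold changes by complex shows where the shift lay. Complex III had the lowest median with sh76 (−0.16, all 10 members below 0), followed by complex IV (−0.14, 13 of 15 below 0), complex I (−0.11, 32 of 36), complex V (−0.07, 13 of 19) and complex II (−0.03, 2 of 4). The complex V median was −0.01 without sh76 replicate 2. With sh78 the medians were −0.18 in complex III (9 of 10 below 0), −0.18 in complex V (18 of 19), −0.16 in complex IV (14 of 15), −0.13 in complex I (34 of 36) and −0.11 in complex II (3 of 4). The assembly factors had a median of 0.02 with sh76 (8 of 17 below 0), which turned to −0.02 on the log2 FPKM scale, to −0.05 after correction for gene length and GC content, and to −0.02 and −0.01 without scramble replicate 2 and sh76 replicate 1, and of −0.07 with sh78 (12 of 17). The differences between complexes were not tested. In sh78 against sh76 the medians were −0.12 for complex V and −0.03, −0.03 and −0.04 for complexes I, III and IV. Of these, complexes III and IV turned to 0.02 and 0.03 and complex I to 0 when counts were so corrected.

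Members were also compared within same-numbered sets of libraries, as the median difference in log2(CPM + 1) from the scramble library of the same number. Over all members this was −0.04, −0.10 and −0.11 with sh76 for numbers 1, 2 and 3, and −0.15, −0.06 and −0.21 with sh78. All 6 values were below 0, and the same medians over all tested genes were 0 to 0.01. The size of the shift differed by number within each hairpin, most for complex IV with sh78, where the 3 medians were −0.19, −0.05 and −0.27. Complex V with sh76 was at 0 for number 1 and at −0.09 and −0.10 for the others.

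**Figure D2:**
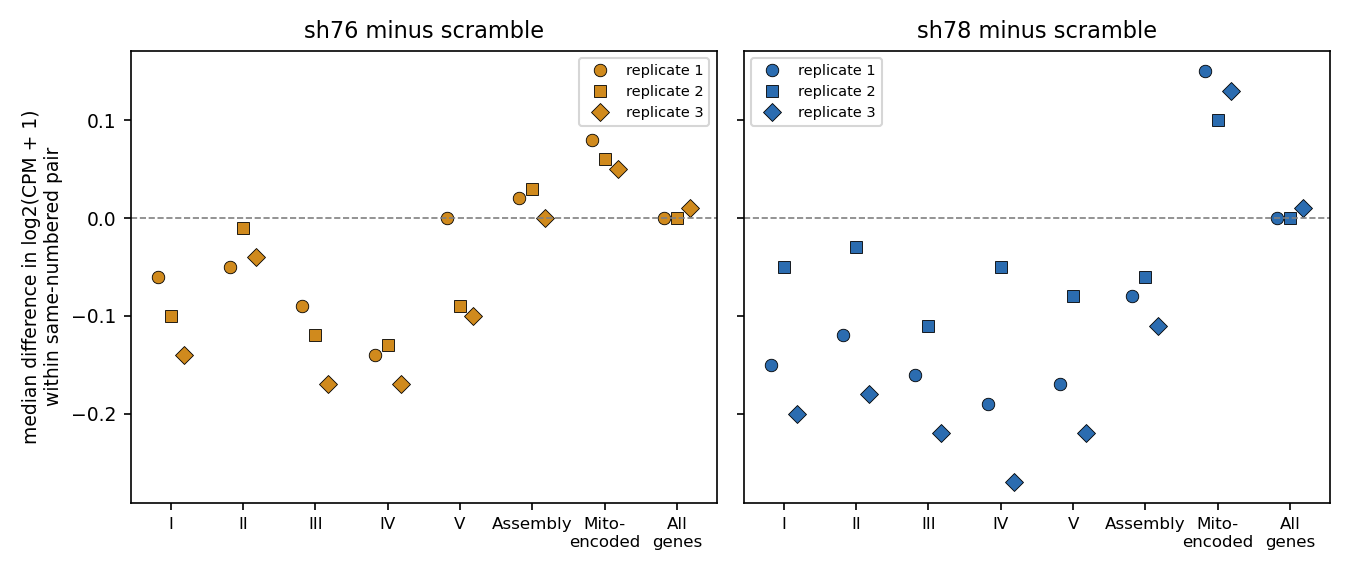
Median over genes of the difference in log2(CPM + 1) between a hairpin library and the scramble library of the same number (y axis), for each complex, the assembly factors, the mitochondrially encoded genes and all tested genes (x axis), with 1 point per replicate number. Points of complexes I to IV are all below 0 in both panels, and those of the mitochondrially encoded genes are all above 0, before the length and GC correction that brought their sh76 median to −0.01.

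Summed over the members of a complex, the deposited FPKM values gave the same picture on a linear scale, and they weigh abundant members most. Complex I summed to 1539 ± 64.4 FPKM (SD, n = 3) with scramble, 1391 ± 62.6 with sh76 and 1388 ± 39.4 with sh78, which is 0.904 and 0.902 of scramble. Complex III summed to 553.2 ± 20.1, 497.2 ± 22.8 and 488 ± 6.32 FPKM. Complex IV summed to 1120 ± 49, 994.9 ± 42.9 and 979.3 ± 22.4 FPKM, the lowest ratio with sh76 (0.888). The hairpin means of these 3 complexes lay more than 1 SD of either group below scramble. Complex V summed to 1061 ± 40.9, 983.1 ± 45 and 923.7 ± 34.8 FPKM, the lowest ratio with sh78 (0.870). Complex II summed to 63.59 ± 1.7, 61.68 ± 1.62 and 57.14 ± 1.82 FPKM, and the assembly factors to 161.9 ± 3.55, 160.6 ± 3.76 and 148.5 ± 3.05. For sh76 the complex II mean lay about 1 SD below scramble and that of the assembly factors within 1 SD, and both sh78 means were lower by more than 3 SDs. No test was run on the sums. All 90 genes placed in complexes I to V together stood at 0.906 of scramble with sh76 and 0.884 with sh78.

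**Figure D3:**
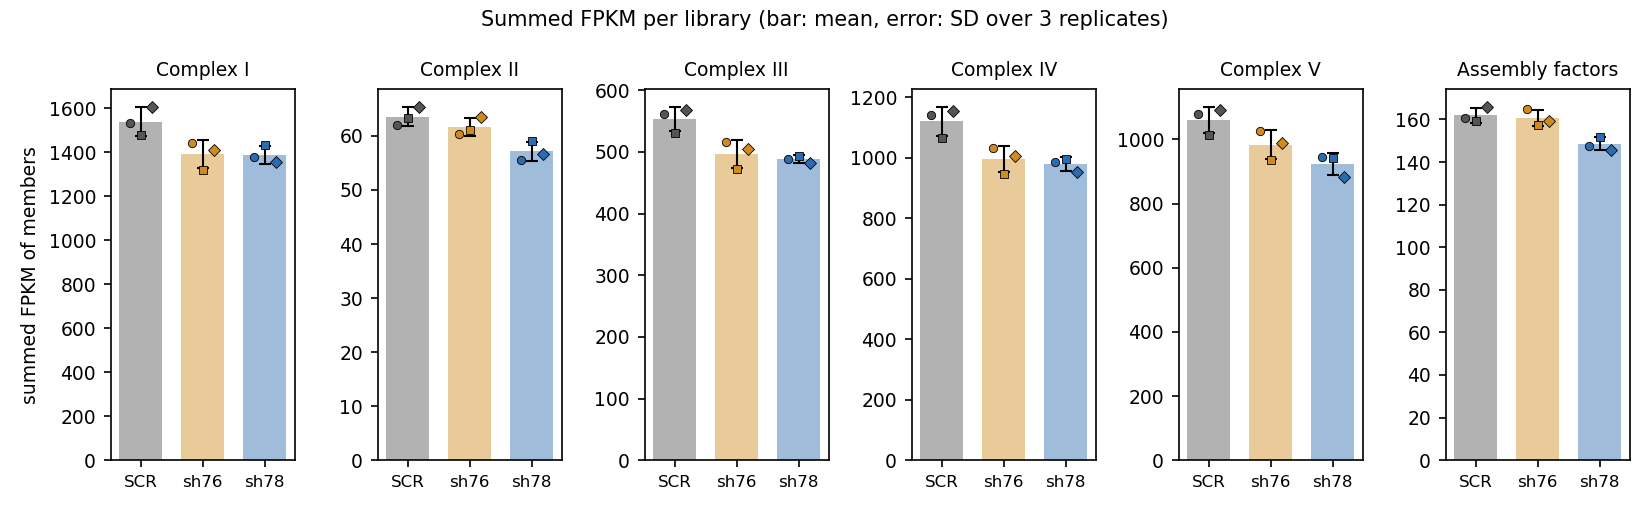
Summed FPKM of the members of each complex and of the assembly factors (y axis, from 0) in each group (x axis), with bars for the mean, error bars for the SD over 3 replicates and 1 point per library. Means of complexes I, III, IV and V are lower with both hairpins, with sh76 replicate 1 of complex V inside the scramble range. Complex II and the assembly factors are lower mainly with sh78.

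Complex I takes electrons from NADH through a chain of iron-sulfur clusters in its core subunits, around which the supernumerary subunits form a shell. NDUFS8 (ENSG00000110717, chromosome 11, 68030617 to 68036644, GRCh38), a core iron-sulfur subunit, had 96.0, 90.3 and 103 CPM with scramble, 76.1, 70.8 and 82.5 with sh76, and 79.8, 80.2 and 84.5 with sh78. All 6 hairpin libraries were below the scramble range. NDUFS8 fell by 0.33 on the log2 scale with sh76 (SE 0.07, adjusted p = 0.0239), to 79.3% of scramble. With sh78 its log2 fold change was −0.24 (adjusted p = 0.0939, and 0.000342 with the block). NDUFB10 (chromosome 16, 1959508 to 1961975), a supernumerary subunit of the membrane arm, had 194, 209 and 224 CPM, then 170, 160 and 180 with sh76, and 174, 177 and 185 with sh78. Again no hairpin library reached the scramble range. NDUFB10 fell by 0.30 with sh76 (SE 0.07, adjusted p = 0.0241) and had a log2 fold change of −0.22 with sh78 (adjusted p = 0.0845, and 0.000179 with the block).

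NDUFC2 (chromosome 11, 78068304 to 78080219), another supernumerary subunit, had 249, 204 and 215 CPM with scramble, 190, 158 and 157 for sh76, and 201, 186 and 178 for sh78. The groups did not overlap with either hairpin, and scramble replicate 1 stood above the other 2. NDUFC2 fell by 0.40 with sh76 (SE 0.09, adjusted p = 0.0240), and its log2 fold change with sh78 was −0.24 (adjusted p = 0.161, and 4.84e-05 with the block). Exons of the readthrough gene NDUFC2-KCTD14, itself at a mean of 0.1 counts, cover 76.9% of the NDUFC2 coding bases. The core subunit with the lowest fold changes was NDUFS7, which carries the last iron-sulfur cluster of the chain. It had 27.1, 23.8 and 26.4 CPM, then 20.2, 18.5 and 19.7 with sh76, and 19.0, 19.1 and 22.9 with sh78, with log2 fold changes of −0.41 (adjusted p = 0.0508) and −0.34 (adjusted p = 0.0994). Its hairpin libraries all lay below the scramble range, and both hairpins were called with the block.

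The other core subunits of complex I gave a mixed picture. The 7 core members had medians of −0.02 and −0.08 with sh76 and sh78, while the 29 tested supernumerary members had −0.11 and −0.13, with 27 and 29 of them below 0. NDUFS1 and NDUFS3 had log2 fold changes from −0.08 to −0.01. NDUFV1, which binds NADH and FMN, had −0.21 (adjusted p = 0.0933) and −0.13 (adjusted p = 0.302), and was called lower with both hairpins under the block. NDUFS5, the most abundant complex I member, had −0.04 and −0.05, with overlapping groups. NDUFV2 had the highest fold change of the complex with sh76, 0.31 (adjusted p = 0.538), at only 22 to 54 counts per library. NDUFA7, not tested, had 4, 7 and 8 counts with scramble, 0, 1 and 1 with sh76, and 8, 1 and 2 with sh78.

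Complex II oxidises succinate in both the citric acid cycle and the respiratory chain. SDHB (ENSG00000117118, chromosome 1, 17018722 to 17054170), its iron-sulfur subunit, had 55, 56.5 and 60.2 CPM with scramble, 51.6, 51.8 and 55.8 for sh76, and 45.9, 47.1 and 48.0 for sh78. The sh78 libraries were all below scramble, and the sh76 libraries overlapped it. SDHB fell by 0.28 with sh78 (SE 0.07, adjusted p = 0.0416), and its log2 fold change with sh76 was −0.11 (adjusted p = 0.478). SDHA, the flavoprotein, had log2 fold changes of −0.14 and −0.12 (adjusted p = 0.288 and 0.374). The membrane anchors SDHC and SDHD had 0.15 and 0.04 with sh76 (adjusted p = 0.202 and 0.828), and 0.01 and −0.10 with sh78 (adjusted p = 0.963 and 0.590). For SDHC all 3 sh76 libraries, at 133, 137 and 140 CPM, were above the scramble libraries at 122, 124 and 123.

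In complex III, UQCRFS1 (chromosome 19, 29205321 to 29213541) encodes the Rieske iron-sulfur protein, which carries electrons towards cytochrome c1. It had 64.4, 66.1 and 69.9 CPM with scramble, 65.1, 60.6 and 63.2 with sh76, and 52.7, 58.6 and 54.0 with sh78. Only the sh78 libraries were separated from scramble. UQCRFS1 fell by 0.28 with sh78 (SE 0.07, adjusted p = 0.0443), and its log2 fold change with sh76 was −0.09 (adjusted p = 0.599). CYC1, cytochrome c1, had 236, 179 and 200 CPM, then 191, 165 and 170 with sh76, and 178, 156 and 172 with sh78. Replicate 1 was highest in each group, and the log2 fold changes of −0.23 and −0.28 were called with the block (adjusted p = 0.000243 and 9.12e-06) and not without it (adjusted p = 0.214 and 0.120). UQCR11, a small subunit with 100% of its coding bases under exons of another gene, had −0.36 and −0.31 (adjusted p = 0.132 and 0.193). All its hairpin libraries were below scramble. UQCRC1 had −0.20 and −0.18 (adjusted p = 0.0620 and 0.0914), likewise separated. UQCRC2, the second core protein, had −0.01 and −0.12, and the hinge protein UQCRH −0.03 and −0.07. UQCRHL, a copy of UQCRH at 2.18 FPKM with scramble, had −0.18 and 0.01.

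Complex IV held the member with the lowest adjusted p with sh78. COX5B (ENSG00000135940, chromosome 2, 97646040 to 97648383), a nuclear-encoded subunit on the matrix side, had 154, 145 and 148 CPM with scramble, 137, 120 and 127 for sh76, and 119, 121 and 119 for sh78. The 3 sh78 libraries were within 2 CPM of each other and below all others except sh76 replicate 2. COX5B fell by 0.32 with sh78 (SE 0.06, adjusted p = 0.00997), and had −0.22 with sh76 (adjusted p = 0.0667, and 0.000266 with the block). It was the only one of the 12 called members whose call was kept when any 1 of the 9 libraries was left out. COX8A (ENSG00000176340, chromosome 11, 63974607 to 63976543), a small membrane-spanning subunit, had 136, 123 and 134 CPM, then 115, 100 and 108 with sh76, and 110, 98.2 and 105 with sh78. No hairpin library reached the lowest scramble library. COX8A fell by 0.28 with sh76 (SE 0.07, adjusted p = 0.0488) and by 0.33 with sh78 (SE 0.07, adjusted p = 0.0193). Leaving out 1 library lost the sh76 call in 7 of 9 cases and the sh78 call in 4 of 9.

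COX7B (chromosome X, 77899438 to 77907373), a small membrane subunit, had 101, 95.4 and 92.0 CPM with scramble, 91.2, 80.6 and 86.3 with sh76, and 75, 80.2 and 80.7 with sh78. Both hairpin groups were below the scramble range. COX7B fell by 0.29 with sh78 (SE 0.07, adjusted p = 0.0313), and had −0.16 with sh76 (adjusted p = 0.247). NDUFA4L2 (chromosome 12, 57234903 to 57240715), a paralogue of NDUFA4 known for its induction by hypoxia, had 10.9, 9.33 and 5.80 CPM with scramble, 4.13, 3.93 and 4.44 for sh76, and 6.09, 5.85 and 4.03 for sh78. The spread within scramble was wide, and scramble replicate 3 overlapped the sh78 libraries. NDUFA4L2 fell by 1.05 with sh76 (SE 0.23, adjusted p = 0.0203), the largest change of any member in size, and had −0.70 with sh78 (adjusted p = 0.109, and 0.00141 with the block).

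Several complex IV positions have alternative isoforms, and at those listed here the general form had the higher level in OVCAR3. COX4I2, COX6A2, COX6B2 and COX8C had at most 7 counts in any library, while COX4I1, COX6A1, COX6B1 and COX8A were at 67.5, 71.6, 238 and 257 FPKM with scramble. Exons of other genes cover 100% of the coding bases of COX6B2 and 25.1% of those of COX6A2, and the effect on their counts was not tested. COX7A1 was at 0.789 ± 0.501 FPKM, beside 68.5 ± 3.48 for COX7A2 and 22.5 ± 1.89 for COX7A2L. COX7B2 had 180 to 372 counts per library, at 19.4 ± 5.31 FPKM beside 31.6 ± 1.35 for COX7B. Its groups overlapped (log2 fold changes 0.02 and −0.02). COX4I1, which joins complex IV early in its assembly, had −0.02 and 0.04, with overlapping groups. NDUFA4 had −0.19 (adjusted p = 0.158) and −0.07 (adjusted p = 0.696).

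**Figure D4:**
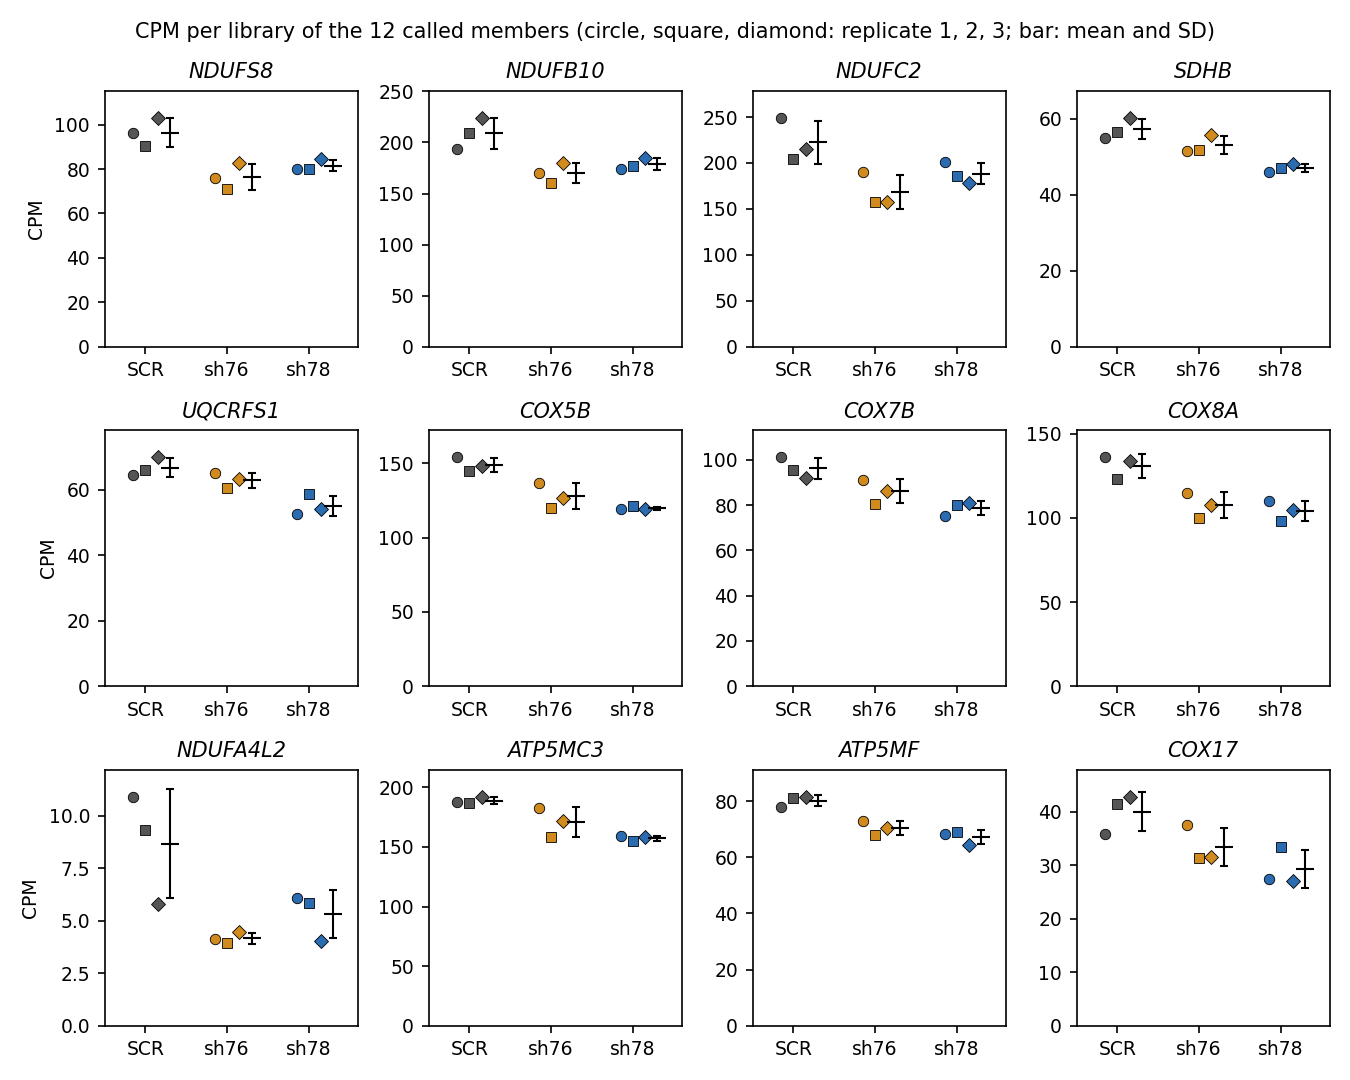
CPM (y axis, from 0) in each of the 9 libraries for the 12 members called with at least 1 hairpin, by group (x axis), with the mean and SD over 3 replicates beside the points. Every hairpin library of COX8A, at 98.2 to 115 CPM, is below the lowest scramble library at 123, while NDUFA4L2 and COX17 show groups that overlap.

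Complex V turns in the membrane on a ring of identical c subunits, made from 3 genes with the same mature protein, and makes ATP in its F1 head. ATP5MC3 (chromosome 2, 175176258 to 175184607), one of the c subunit genes, had 188, 187 and 192 CPM with scramble, 183, 158 and 172 with sh76, and 159, 155 and 158 with sh78. All hairpin libraries were below scramble, and sh76 replicate 1 came closest to it. ATP5MC3 fell by 0.27 with sh78 (SE 0.06, adjusted p = 0.0258) and had −0.14 with sh76 (adjusted p = 0.247). The other c subunit genes, ATP5MC1 and ATP5MC2, had 0.03 and −0.10 with sh76 and −0.13 and −0.01 with sh78, with overlapping groups. ATP5MF (chromosome 7, 99448475 to 99466331), the membrane subunit f, had 77.9, 81.0 and 81.5 CPM, then 72.9, 68.0 and 70.6 with sh76, and 68.4, 69.1 and 64.3 with sh78. No hairpin library reached the scramble range. ATP5MF fell by 0.25 with sh78 (SE 0.07, adjusted p = 0.0457), a call lost on leaving out any 1 of the 9 libraries.

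ATP5F1B had 1010, 920 and 972 CPM with scramble, 898, 830 and 867 with sh76, and 861, 806 and 830 with sh78. Both hairpin groups were thus below the scramble range, and they overlapped each other. Its log2 fold changes were −0.16 (adjusted p = 0.158) and −0.22 (adjusted p = 0.0512), and both were called with the block. ATP5F1A, the alpha subunit, had −0.09 (adjusted p = 0.536) and −0.26 (adjusted p = 0.0521). ATP5ME, the membrane subunit e, had the lowest fold change of complex V with sh76, −0.42 (adjusted p = 0.0525), and −0.26 with sh78 (adjusted p = 0.254). Its CPM values were 28.5, 24.9 and 26.7, then 22.6, 19.6 and 17.5, and then 23.6, 22.8 and 20.6. All hairpin libraries of ATP5ME were thus below scramble. At the other end, the stalk subunit gene ATP5PB had 0.07 and −0.08, and ATP5MG, subunit g, 0.18 and 0.03. ATP5MGL, a copy of ATP5MG, had at most 1 count in a library.

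Among the assembly factors, COX17 (chromosome 3, 119654513 to 119677454), the copper chaperone that supplies complex IV, had 35.9, 41.5 and 42.8 CPM with scramble, 37.6, 31.4 and 31.5 for sh76, and 27.5, 33.4 and 27.0 for sh78. The sh78 libraries were all below scramble, and sh76 replicate 1 lay inside the scramble range. COX17 fell by 0.45 with sh78 (SE 0.11, adjusted p = 0.0319), and had −0.26 with sh76 (adjusted p = 0.226). COX18, which helps insert a mitochondrially encoded subunit into the membrane, had −0.31 and −0.35 (adjusted p = 0.210 and 0.153), separated from scramble with both hairpins. COX10 had the opposite sign with sh76: 47.9, 48.4 and 49.7 CPM against 37.6, 42.2 and 40.0 with scramble, and 39.2, 40.5 and 40.7 with sh78. Its log2 fold changes were 0.28 (adjusted p = 0.0522) and 0.01 (adjusted p = 0.984). NDUFAF7, a methyltransferase for complex I, had 0.17 and 0.28, and COX14 and COX20, which help early complex IV assembly, had −0.05 and 0.25 with sh76 and −0.14 and 0.06 with sh78, none of them called.

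The promoters of 84 members were present in the RefSeq table (GRCh38.p14), as the 250 bases before each transcription start. NRF1 sites were searched as GCGC, any base, then TGCGC, and GABP sites as CCGGAAG, on both strands. The NRF1 letters occurred in 16 of the 84 (19.05%), against 5.53% of 27305 promoters of all genes, and the GABP letters in 19 (22.62%), against 8.82%. Of the 12 called members 8 have a promoter in the table, of which 3 hold the GABP letters (COX5B, COX8A and SDHB), 2 the NRF1 letters (UQCRFS1 and COX17) and 3 neither (COX7B, NDUFB10 and NDUFS8). Shown as examples of called members with a match are 2 with each motif. They are read 5′ to 3′ along the gene's strand, with motif matches in capitals, also where the match is to the other strand. The windows are chr11:63974370-63974619 (plus strand) for COX8A, chr2:97645812-97646061 (plus strand) for COX5B, chr19:29213152-29213401 (minus strand) for UQCRFS1 and chr3:119677407-119677656 (minus strand) for COX17.
COX8A: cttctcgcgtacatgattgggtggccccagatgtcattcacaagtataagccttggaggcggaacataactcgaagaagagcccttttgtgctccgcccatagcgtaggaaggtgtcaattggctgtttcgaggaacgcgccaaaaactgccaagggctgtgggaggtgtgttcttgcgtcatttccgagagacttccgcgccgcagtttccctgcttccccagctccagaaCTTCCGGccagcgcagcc
COX5B: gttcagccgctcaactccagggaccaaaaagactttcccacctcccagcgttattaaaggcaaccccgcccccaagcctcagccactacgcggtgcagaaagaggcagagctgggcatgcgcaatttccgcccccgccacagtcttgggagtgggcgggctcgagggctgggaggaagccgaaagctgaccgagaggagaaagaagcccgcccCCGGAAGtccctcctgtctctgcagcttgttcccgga
UQCRFS1: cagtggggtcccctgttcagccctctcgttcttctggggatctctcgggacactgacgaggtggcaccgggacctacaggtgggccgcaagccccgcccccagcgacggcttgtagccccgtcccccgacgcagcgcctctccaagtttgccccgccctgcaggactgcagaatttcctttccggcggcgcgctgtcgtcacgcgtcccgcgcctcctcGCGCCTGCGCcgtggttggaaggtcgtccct
COX17: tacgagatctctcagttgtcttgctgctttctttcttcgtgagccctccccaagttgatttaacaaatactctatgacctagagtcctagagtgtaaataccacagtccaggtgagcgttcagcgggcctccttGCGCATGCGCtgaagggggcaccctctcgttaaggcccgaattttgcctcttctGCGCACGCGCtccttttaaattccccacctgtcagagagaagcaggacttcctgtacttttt
COX8A and COX5B each hold 1 GABP match. UQCRFS1 holds 1 NRF1 match. COX17 holds NRF1 matches at 2 places, of which the first reads the same on both strands. No NRF1 match overlaps a GABP match in these 4 windows.

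Fold changes were next set out by the presence of these letters. The 15 tested members with an NRF1 match had medians of −0.14 and −0.18 with sh76 and sh78, and the 64 without one had −0.10 and −0.13. The 19 with a GABP match had −0.12 and −0.17, and the 60 without had −0.09 and −0.13. The differences were not tested, and a match is only an occurrence of letters. The 18 listed regulators of subunit transcription had medians of −0.10 and −0.07, with 1 lower with each hairpin and 0 higher (2 and 3 at an unadjusted p under 0.05; DESeq2 also called 1 lower and 0 higher with each, limma on FPKM 0). With the block 3 were lower (16.7%) and 0 higher with sh76, and 3 lower (16.7%) and 1 higher with sh78. The block called 10.7% of all tested genes lower and 9.63% higher with sh76, and 10.1% lower and 9.79% higher with sh78. Among them PPARGC1A had 6.17, 8.33 and 6.03 CPM with scramble, 3.08, 3.78 and 3.20 with sh76, and 5.60, 6.95 and 5.33 with sh78. PPARGC1A fell by 1.02 with sh76 (SE 0.19, adjusted p = 0.00925), had −0.20 with sh78 (adjusted p = 0.649), and was higher with sh78 than with sh76 by 0.82 (adjusted p = 0.0315). The last call was lost without any 1 of the 6 hairpin libraries, and the call with sh76 without scramble replicate 2. Neither call was made in the limma fits. Those fits tested 17 of the 18 regulators, and a gene below their FPKM filter counts as not called. ESRRA fell by 0.29 with sh78 (SE 0.08, adjusted p = 0.0470) and had −0.13 with sh76 (adjusted p = 0.426, and 0.0484 with the block). Its sh78 call was lost in 7 of 9 fits that left out 1 library, in both limma fits and after length and GC correction. NRF1 had −0.16 and −0.09, and GABPA, the DNA-binding subunit of GABP, −0.17 and −0.07, with none called except GABPA with sh76 under the block (adjusted p = 0.0268).

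The nuclear members were set beside the 13 subunits encoded by mitochondrial DNA. Those had median log2 fold changes of 0.07 with sh76, which turned to −0.01 after correction for gene length and GC content, and of 0.09 with sh78, which became 0.11. Of the 13, 10 and 11 were above 0 without the correction and 5 and 11 with it. With sh76, edgeR and DESeq2 each called 0 (0 at an unadjusted p under 0.05), and 1 was higher with the block (1 lower with block and correction). With sh78, 1 was called higher (6 with the block, which called 9.79% of all tested genes higher). That gene was MT-CYB, the mitochondrially encoded subunit of complex III, with 2510, 2660 and 2620 CPM with scramble and 3080, 3140 and 3250 with sh78 (log2 fold change 0.28, SE 0.05, adjusted p = 0.00767). Within same-numbered libraries the medians of the 13 genes were 0.08, 0.06 and 0.05 for sh76, and 0.15, 0.10 and 0.13 for sh78. The difference between the nuclear and mitochondrial sets was not tested. Mitochondrial genes took 4.24% to 5.16% of the counts of a library. A further list of assembly factors and cytochrome c outside the name rule had 41 annotated entries, 39 of them tested. SCO2 had more than 1 entry, none of them tested. The medians of the list were −0.04 and −0.05. With sh76, 0 were called by edgeR or DESeq2 (3 at an unadjusted p under 0.05 in edgeR), and 1 was lower with sh78. That gene was ATPAF1, an assembly factor of the F1 head, which fell by 0.46 (SE 0.07, adjusted p = 0.0021) and had −0.05 with sh76 (adjusted p = 0.781). With the block 1 gene of this list was lower (2.56%) and 2 higher with sh76, and 4 lower (10.3%) and 0 higher with sh78. Of all tested genes, the block called 10.7% lower and 9.63% higher with sh76, and 10.1% lower and 9.79% higher with sh78.

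Members differed in how far their exons overlap those of other genes. The 2 readthrough genes are left out of the groups below. Exons of other genes cover at least 50% of the coding bases of 15 members, whose median level with scramble was 5.65 FPKM. The median was 14.3 FPKM for the 12 members with 10% to 50% covered and 29.4 FPKM for the 80 with less. NDUFV2 and NDUFA13, both required for complex I, were at 0.698 and 0.594 FPKM, with 84.7% and 55.2% of their coding bases covered. COX8A and NDUFC2 stood at 257 and 83.5 FPKM with 55.1% and 76.9% covered, so that overlap did not go with a low level in every case. Other members with the lowest fold changes of their complex were also covered: UQCR11 100%, NDUFS7 48.5%, ATP5MF 44.6% and ATP5ME 44.0%. SDHA, SDHB, CYC1, NDUFA4L2, COX17 and COX18, taken by the same rule, had 0% covered. The effect of overlap on single fold changes was not tested. The libraries were not strand-specific, so reads of overlapping genes could not be told apart by strand. In the 77 tested members with under 10% covered, the medians were −0.10 and −0.13, as over all members, and 3 and 6 fell with sh76 and sh78.

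**Figure D5:**
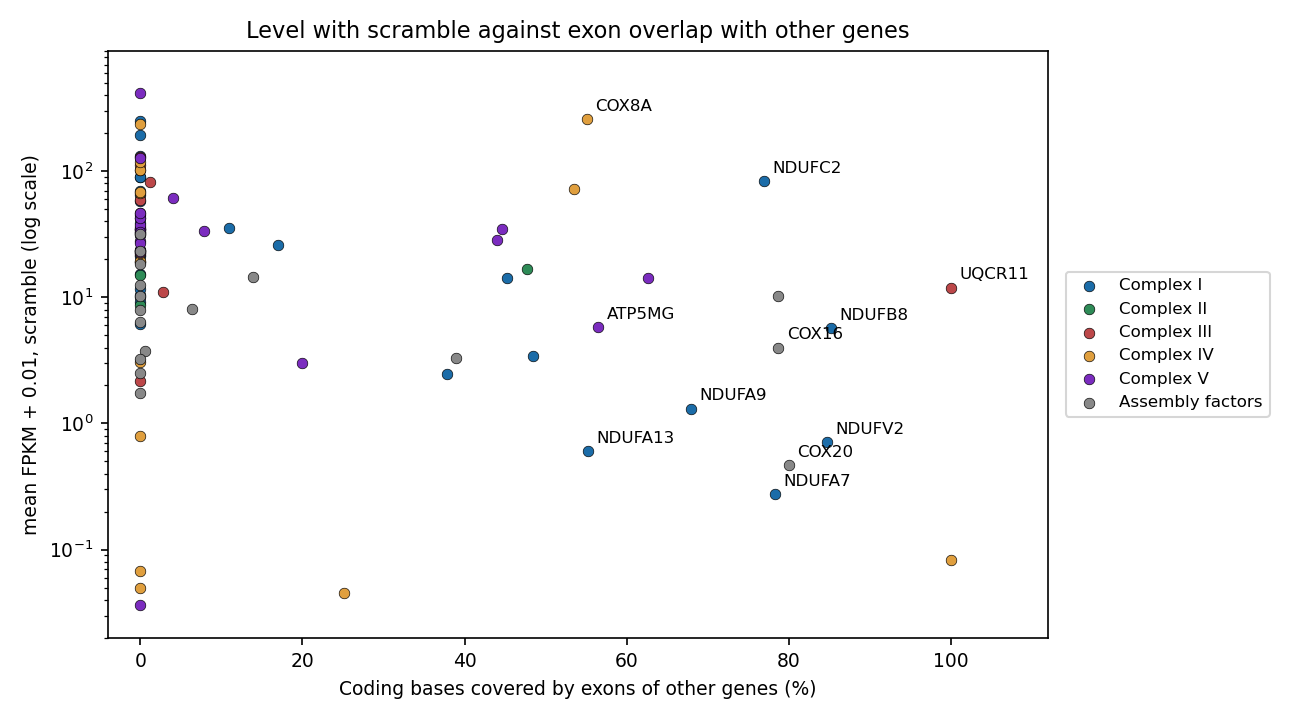
Mean FPKM with scramble, plus 0.01, on a log scale (y axis) against the share of a member's coding bases that exons of other genes cover (x axis), with 1 point per member and colours for complexes. Members with 50% or more covered include NDUFV2, NDUFA13 and COX20 at under 1 FPKM, and COX8A at 257 FPKM.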

How the data were processed

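RNA was measured by poly-A RNA sequencing with non-directional libraries, per the labels' protocols. The submitters' processing notes name HISAT2 2.0.5, featureCounts 1.5.0-p3 and hg38, and counting settings are not given in the sources used here. The authors deposited counts per gene, used as raw counts, and FPKM values, used for levels.

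Counts were tested with edgeR 4.0.16 (R 4.3.3): filterByExpr (minimum count 10, total 15), TMM scaling, robust quasi-likelihood F tests over all 9 libraries, 3 contrasts and Benjamini-Hochberg adjustment over 17023 genes, called at adjusted p under 0.05. CPM use TMM library sizes. Coordinates and exon overlaps are from GENCODE release 29 (GRCh38). The common coefficient of variation was 10.4%. No replicates of a group were duplicates. Methods were tested on simulated data. There same-numbered replicates shared no deviation, so the block fit was not tested for data with such deviations.

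Deviations from group means correlated at 0.23 to 0.50 in 9 same-numbered pairs of libraries and at −0.40 to 0.09 in 18 others, so the labels' numbers were taken to pair libraries, and a fit with the number as a block is given beside the counts it changes, with those of the described members that it adds.

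Members and lists were chosen with earlier results of these data known. Genes named are those called, the 2 highest and 2 lowest fold changes and the highest and lowest FPKM per complex, up to 3 per complex called with both hairpins under the block, listed isoforms, untested members and called genes of other lists. A gene that this rule takes is not reported here. NDUFV1, NDUFS1, NDUFS3, ATP5F1A, COX10, ATP5MD, NDUFAF8, NRF1 and GABPA were added after their values were seen. Alternatives were the block, DESeq2 1.42.0 and its size factors, no filter, limma 3.58.1 on log2(FPKM + 1) and log2(FPKM + 0.1), added pseudogene counts, and each library left out. A length and GC correction and a limit to members with little overlap were chosen after seeing the data.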

Additional observations from a re-analysis of the deposited data

How the results depend on the processing

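Leaving out 1 library at a time gave 0 to 6 called members with sh76, 1 to 8 with sh78, 0 to 1 for sh78 against sh76 and 0 to 2 with both hairpins. Counts changed with single libraries: without sh76 replicate 2 no member was called with sh76 (14 at an unadjusted p under 0.05), and without sh78 replicate 3 there was 1 with sh78. Calls over all tested genes fell in these fits too. Without sh76 replicate 2 they were 1.37% with sh76, against 3.58% in the main fit. Without sh78 replicate 3 they were 2.59% with sh78, against 4.41% in the main fit. Medians over all members ran from −0.13 to −0.07, −0.17 to −0.11 and −0.08 to −0.04, and GPX3 from −1.38 to −1.02, −2.24 to −1.88 and −0.98 to −0.80, in the same order of comparisons (sh76, sh78, sh78 against sh76). For the mitochondrially encoded genes medians ran from 0.00 to 0.11, 0.04 to 0.13 and −0.03 to 0.09 (−0.03 without sh76 replicate 1, −0.01 without sh78 replicate 3). For the regulators they ran from −0.10 to −0.04, −0.08 to −0.04 and −0.02 to 0.03 (−0.01 without sh76 replicate 1 or 2, −0.02 without sh78 replicate 1), and for the other assembly factors from −0.05 to −0.03, −0.10 to −0.02 and −0.06 to 0.00.

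With sh76, 33 members were called under the replicate block, 10 by DESeq2, 9 with no filter, 3 by limma with either pseudocount, 8 after length and GC correction, 37 after both block and correction, and 3 among members with little overlap. With sh78, 42 were called under the block and 41 after block and correction. For sh78 against sh76 there were 11 under the block, 1 by DESeq2, 1 by limma with either pseudocount and 14 after block and correction. Of all tested genes in the 3 comparisons, the block called 20.4%, 19.9% and 18.3%. The correction called 3.67%, 4.36% and 3.54%, and block and correction together 20.1%, 19.5% and 18.2%. Fits with no filter called 3.18%, 3.36% and 3.12%, and limma with a pseudocount of 1 called 2.77%, 3.63% and 2.76%. With both hairpins there were 26 under the block, 2 by DESeq2, 4 with no filter, 0 by limma with either pseudocount, 2 after correction, 29 after block and correction and 0 with little overlap. Of all tested genes, 4.56% fell with both hairpins under the block and 0.881% in the main fit. The share of all genes called with both hairpins under the other settings is not given here. The setting with little overlap tests 77 members, and the limma fits 97. For the other settings the cause was not tested. After length and GC correction, with or without the block, the mitochondrially encoded median was −0.01 with sh76 and 0.11 for sh78 against sh76. The regulators' median was −0.06 with sh76 by limma with a pseudocount of 1, and 0.00 for sh78 against sh76 by limma with either pseudocount and after block and correction.

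Of all tested genes, the block called 3467, 3388 and 3117 in the 3 contrasts against 610, 750 and 629 without it, and fits with no filter called 1149, 1212 and 1125. limma with a pseudocount of 1 called 383, 502 and 382, and with 0.1 it called 367, 502 and 374. Adjusted p of COX5B with sh78 ran from 1.04e-06 to 0.0444. The medians over all members and the called members kept their direction under all alternatives run, the medians of single complexes did not in all cases (their values stand with the complexes above), and the block ended no call. The limma fits lost NDUFC2, NDUFA4L2 and COX8A with sh76 and COX17 with sh78, and no filter or the correction lost SDHB and ATP5MF. NDUFV2, NDUFA13, UQCRHL, COX7A1 and COX20 had under 100 counts per library, where a small difference was not detectable. In deeper members too, the smallest change called in the main fit was 0.25 in size (ATP5MF with sh78). Changes near the median of all members were thus not called there.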

Other observations

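ATP5MD, a small membrane subunit of ATP synthase, had 1798, 1977 and 2175 counts with scramble, 1981, 2290 and 2434 in the sh76 group, and 1995, 1717 and 994 in the sh78 group. In CPM the last sh78 library stood at 64.6, beside 107 and 118 in the other sh78 libraries and 111 to 125 in the 6 remaining ones. Its log2 fold change with sh78 was −0.30 (edgeR adjusted p = 0.474).

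Pseudogenes by name exist for 50 of the 109 members, 168 in all. They held over 5% of the summed count of a member and its pseudogenes for 3 members: NDUFV2 (40.91%), SDHA (13.74%) and COX20 (9.81%). Adding pseudogene counts to their members left the numbers of called members at 5, 8 and 0 in the 3 comparisons.

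NDUFAF8, an assembly factor of complex I, had 30.9, 31.9 and 33.0 CPM with scramble, 35.7, 33.5 and 33.6 in the sh76 group, and 29.2, 30.4 and 29.9 in the sh78 group. The scramble libraries thus lay between the groups of the hairpins, without overlap, and neither difference from scramble was called (edgeR adjusted p = 0.560 with sh76 and 0.601 with sh78).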
